A study of Mus musculus with 6 samples.

Results

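The nuclear-encoded subunits of oxidative phosphorylation were taken as the rows whose gene name starts with Ndufa, Ndufb, Ndufc, Ndufs, Ndufv, Uqcr, Cox4, Cox5, Cox6, Cox7, Cox8 or Atp5, or is Sdha, Sdhb, Sdhc, Sdhd or Cyc1. Assembly factors starting with Ndufaf and names containing -ps were dropped, which left 86 of the 49568 gene names. By complex they were 36 genes of complex I, 4 of complex II, 9 of complex III, 20 of complex IV and 15 of complex V, with Ndufa4 and Ndufa4l2 counted in complex IV, where the protein is now placed. Atp5s and Atp5sl, named for ATP synthase but not structural subunits, were kept apart as 2 associated genes.

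RNA was sequenced from neurons of the preBötzinger Complex (preBötC), the medullary site that generates the inspiratory rhythm, at postnatal day 2. All mice were Dbx1CreERT2; Rosa26tdTomato offspring, in which Cre recombination labels cells from Dbx1-expressing progenitors with tdTomato, and tamoxifen was given to the dams during gestation. The 3 Dbx1 samples each held 15 fluorescent neurons and the 3 non-Dbx1 samples each held 15 neuronal somata without tdTomato, which is a group defined by the absence of a label and may hold several neuron types. The samples came from 6 different mice, so a difference between the groups includes the difference between mice. Every level below is an RPKM (reads per kilobase of exon, scaled to the reads on genes in that sample), computed by the authors for each sample, and samples are listed as Dbx1 replicates 1, 2 and 3 and then non-Dbx1 replicates 1, 2 and 3. L2FC is the mean of log2(RPKM + 1) in Dbx1 neurons less that in non-Dbx1 neurons, so a positive value is higher in Dbx1 neurons.

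Oxidative phosphorylation passes electrons from NADH through complex I, or from succinate through complex II, to ubiquinone, then through complex III and cytochrome c to complex IV, which reduces oxygen. The protons pumped by complexes I, III and IV drive ATP synthase, complex V. Most subunits are encoded in the nucleus and imported, while a core set of hydrophobic subunits is encoded by mitochondrial DNA. Neurons depend on this pathway for the ATP that ion pumping consumes. Several subunits of complex IV and subunit c of ATP synthase exist as isoforms from separate genes, some of them characteristic of heart, skeletal muscle, lung or testis.

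Subunit c, which forms the rotating ring of ATP synthase, is the clearest case of such a family here, since 3 genes encode the same mature protein. Atp5g3 (chr2:73908447-73911326, minus strand), Atp5g1 (chr11:96068852-96075670, minus strand) and Atp5g2 (chr15:102662864-102672352, minus strand) are placed as in GENCODE vM21 on GRCm38. The last 60 coding bases before the stop codon are shown because they differ between the 3 genes. They lie in the last exon of each gene, at chr2:73908596-73908655, chr11:96073107-96073166 and chr15:102663017-102663076, and capitals mark bases that differ from Atp5g3.
Atp5g3: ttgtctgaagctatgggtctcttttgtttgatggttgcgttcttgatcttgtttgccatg
Atp5g1: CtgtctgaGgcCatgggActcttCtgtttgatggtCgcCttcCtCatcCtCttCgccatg
Atp5g2: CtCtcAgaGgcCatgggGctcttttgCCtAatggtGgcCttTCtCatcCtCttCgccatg

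Atp5g1 differed from Atp5g3 at 12 of these bases and Atp5g2 at 17. Over the last 75 codons, identity of the bases to Atp5g3 was 80.0% for Atp5g1 and 78.7% for Atp5g2, with no 50-base window in common at the same place. Atp5g2 differed from the other 2 genes in another way: 100% of the 50-base windows of its principal transcript recurred in 2 processed pseudogenes, Gm10175 and Gm10231. That transcript is 441 bases long, of which 438 are coding, where the merged exons of the gene hold 1675 bases. The 100% therefore covers little beyond the coding part. The stretch shown of Atp5g1 also recurred in another gene, Gm12337, and that of Atp5g3 in none.

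Nuclear respiratory factor 1 (NRF1) binds a GC-rich site in the promoters of many respiratory genes. RefSeq promoter windows of GRCm38.p6, from 250 bases before to 50 bases after the start site, were at hand for 67 of the 86 genes. The letters GCGCA and GCGC with any base between them, searched on both strands, were found in 17 of the 67 (25.4%) and in 5.19% of all 27025 gene symbols with a window. By complex, 7 of 32 genes of complex I, 2 of 3 of complex II, 1 of 5 of complex III, 1 of 14 of complex IV and 6 of 13 of complex V held them. The following stretches, read 5′ to 3′ on the gene's strand, show the match in capitals with 20 bases on each side. They are from the most highly expressed gene of complexes I, II, IV and V whose match and both flanks lay before the RefSeq start site. In Ndufa8 the letters read on the opposite strand. They lie at chr2:36049339-36049388 (Ndufa8), chr9:50603899-50603948 (Sdhd), chr5:115349046-115349095 (Cox6a1) and chr5:108434420-108434469 (Atp5k), all on the minus strand.
Ndufa8: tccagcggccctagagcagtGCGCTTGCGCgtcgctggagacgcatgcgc
Sdhd: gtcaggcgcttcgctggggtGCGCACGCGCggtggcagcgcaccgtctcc
Cox6a1: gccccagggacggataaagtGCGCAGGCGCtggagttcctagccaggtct
Atp5k: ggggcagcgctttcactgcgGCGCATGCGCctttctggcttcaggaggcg

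The matches ended 21, 70, 108 and 41 bases before the RefSeq start site in the order shown. GENCODE vM21 places the gene starts differently. There the whole Ndufa8 stretch lies inside the gene (chr2:36036326-36049406), and part of the Atp5k stretch does (chr5:108433244-108434448). The letters CCGGAAG, the core bound by GABP, were found in 16 of the 67 (23.9%) against 9.93% of all symbols, and AAGATGGC, a core of YY1 sites, in 9 (13.4%) against 3.19%. The Sp1 core GGGCGG was found in 27 (40.3%) against 38.2%, and TATAAA in 7 (10.4%) against 15.7%. These are descriptions of letters in a window, and genes with the NRF1 letters had a median L2FC of 0.11 against 0.07 in those without.

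Transcripts of the pathway were abundant in both groups. Of the 86 genes, 79 had RPKM above 0 in all 6 samples, 73 had a mean RPKM of at least 10 and 39 (45.3%) of at least 100, a level reached by 450 of the 49568 gene names (0.908%). The 84 genes assigned to a complex together held 4.67%, 4.29% and 4.004% of the summed RPKM of the Dbx1 samples, against 3.92%, 3.68% and 4.15% of the non-Dbx1 samples, so the groups overlapped. Cox8a, a small subunit of complex IV, had the highest mean at 657 RPKM, followed by Ndufb9 of complex I at 607 and Cyc1, the cytochrome c1 of complex III, at 578. The 13 subunits encoded by mitochondrial DNA were listed at 0 in all 6 samples, which need not mean that their transcripts were absent, since how the reads of these genes were handled is not given in the sources used here.

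**Figure D1:**
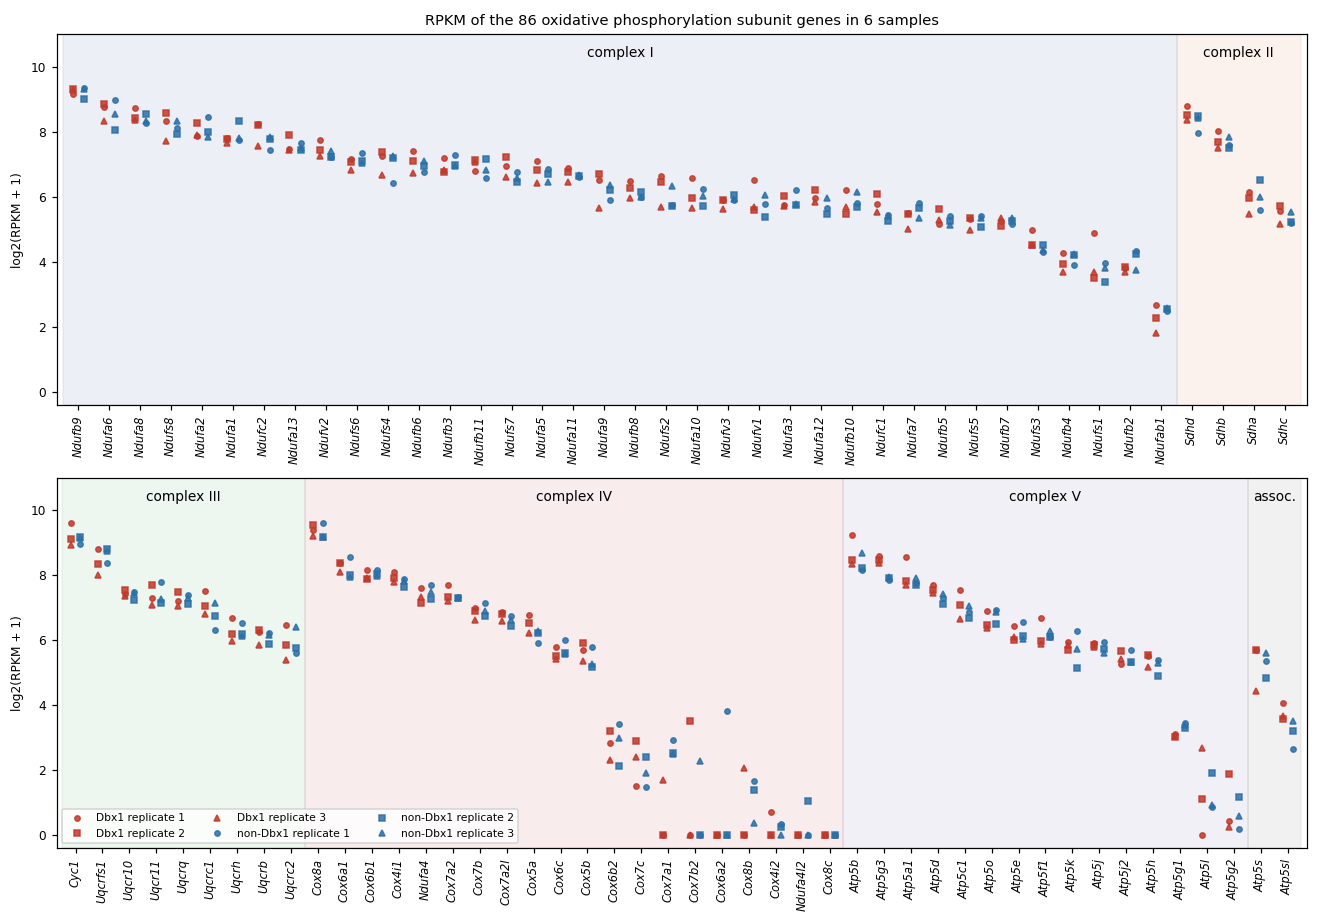
Each point is log2(RPKM + 1) of a gene in a sample, with Dbx1 samples in red and non-Dbx1 samples in blue, and genes ordered within each complex by mean RPKM. Complexes I, II and III had no gene at 0, and the points at or near 0 belong to complex IV isoforms and to Atp5l and Atp5g2.

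The limma test on log2(RPKM + 1) took in 17614 genes, those listed above 0 in 3 or more samples, and 82 of the subunit genes were among them. Cox6a2, Cox7b2, Ndufa4l2 and Cox8c did not reach that filter. No subunit gene had an FDR under 0.1, and of all 17614 tested genes only 1 (0.00568%) did, so this threshold could hardly single out any gene. The authors' test on counts called several genes at that threshold, among them Hif1a and Gata2. With an unadjusted p under 0.05 there were 2 subunit genes (2.44%) against 5.2% of all tested genes. Atp5g3 was higher in Dbx1 neurons, where 2.73% of all tested genes passed, and Cox7a1 higher in non-Dbx1 neurons, where 2.48% passed. The groups did not overlap in 7 of the 82 (8.54%), against 10.6% of all tested genes. Of these 5 (6.10%) were higher in Dbx1 neurons, against 5.35% of all tested genes, and 2 (2.44%) were higher in non-Dbx1 neurons, against 5.24%. Since 3 samples per group limit such a test, the intervals matter: for 67 of the 82 genes the 95% interval of the L2FC lay between -1 and 1.

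The subunit genes had a small spread within the groups. The median within-group SD of log2(RPKM + 1) was 0.25 for the 82 subunit genes and 0.55 for all tested genes. At like expression the gap narrowed. Between 10 and 100 RPKM it was 0.25 for 34 subunit genes and 0.45 for all 3974 genes, and between 100 and 1000 RPKM it was 0.23 for 39 subunit genes and 0.30 for all 440 genes. For the 73 subunit genes with a mean of at least 10 RPKM, the highest of the 6 samples was 1.21 to 3.0 times the lowest, with a median of 1.6.

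**Figure D2:**
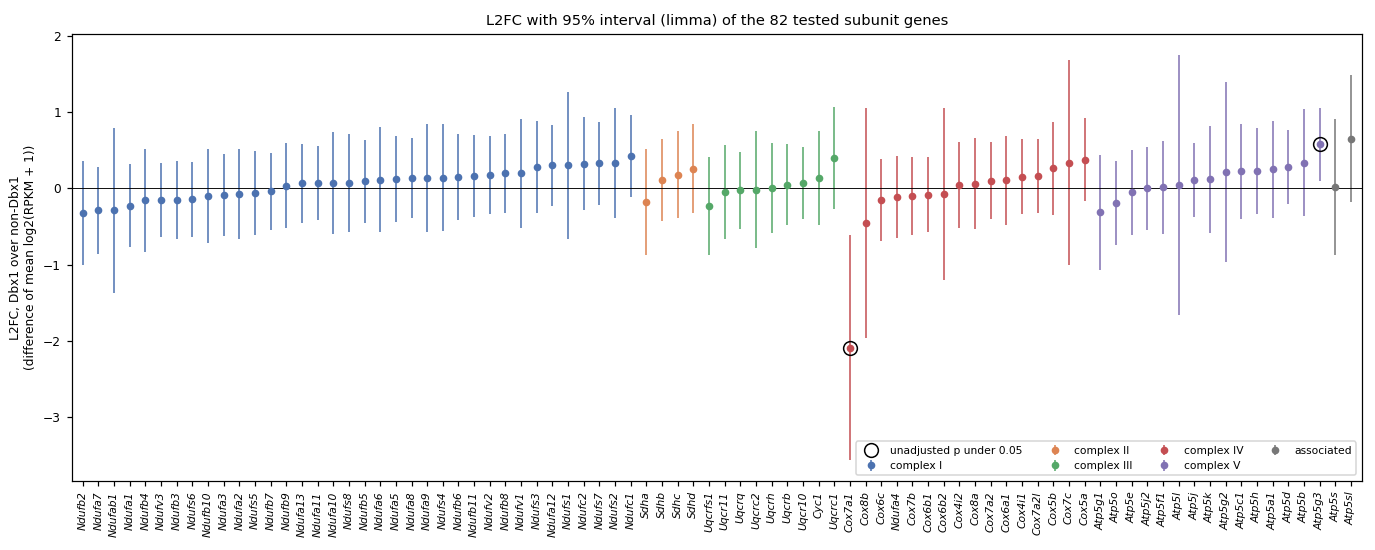
Points are the L2FC of each tested subunit gene and bars its 95% interval from limma, coloured and grouped by complex. The bars of 80 genes span 0 and those of Cox7a1 and Atp5g3, circled, do not, and neither gene had an FDR under 0.1.

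Over all 82 genes the median L2FC was 0.07 and 54 were above 0 (65.9%), beside a median of 0.01 and 50.8% over all tested genes. The size of this lean depended on single samples, and the median fell below 0 only with Dbx1 replicate 1 left out. Without Dbx1 replicate 1 the median was -0.01 with 38 genes above 0, and without Dbx1 replicate 3 it was 0.19 with 60. Without non-Dbx1 replicate 2 it was 0.02 with 43. Without Dbx1 replicate 2, non-Dbx1 replicate 1 or non-Dbx1 replicate 3 it was 0.04, 0.11 and 0.09, with 48, 58 and 51. Of the 79 genes present in all samples, 34 had their highest value in Dbx1 replicate 1 and 33 their lowest in Dbx1 replicate 3. In the other group, 23 had their highest value in non-Dbx1 replicate 1 and 20 their lowest in non-Dbx1 replicate 2.

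The summed RPKM of neuronal markers ran alike with that of the subunit genes among the Dbx1 samples but not among the non-Dbx1 samples. The summed RPKM of 6 of them (Snap25, Syn1, Tubb3, Eno2, Stmn2, Rbfox3) was 2202, 1781 and 1364 in Dbx1 neurons against 1326, 1679 and 1828 in non-Dbx1 neurons, highest in Dbx1 replicate 1 and lowest in non-Dbx1 replicate 1. The summed RPKM of the 84 subunit genes was 12696, 11514 and 9570 and then 10835, 10010 and 10704. Single markers differed. Tubb3, the largest part of the marker sum, fell from 1232 to 823 and 684 over the Dbx1 replicates, and Snap25 and Syn1 fell in that order. Eno2 (65.7, 72.1 and 59.1) and Stmn2 (503, 561 and 381) were highest in Dbx1 replicate 2, and Rbfox3 (11.5, 11.1 and 28.6) in Dbx1 replicate 3. Whether the share of neuronal RNA in a sample has a part in the subunit levels was not tested. In bulk samples of this kind, fewer cells of a type and less RNA per cell cannot be told apart.

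Non-Dbx1 replicate 1 stood apart in markers of other cells. The summed RPKM of 6 oligodendrocyte markers was 19.4 to 68.3 in Dbx1 neurons against 46.1 to 430 in non-Dbx1 neurons, and that of 6 erythroid markers was 90.3 to 507 and 733 to 14063, with the highest value of both in that sample. All of these 12 genes were above 0 in some sample. Endothelial markers reached 72.2 in non-Dbx1 replicate 2 and at most 3.95 in the other five samples, microglial markers lay between 0.202 and 44.4, astrocyte markers between 24.5 and 44.9, and pericyte markers between 0.102 and 3.07, with Kcnj8 and the microglial Tmem119 at 0 throughout. Without non-Dbx1 replicate 1 the median L2FC of the subunit genes was 0.11, with 58 above 0.

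Complex I, the proton-pumping NADH dehydrogenase, had 23 of its 36 genes above 0 with a median L2FC of 0.08, the range running from -0.33 for Ndufb2 to 0.42 for Ndufc1. Its summed RPKM was 5015, 5039 and 3993 in Dbx1 neurons against 4599, 4254 and 4498 in non-Dbx1 neurons, a mean of 4682 ± 597 against 4450.5 ± 178 (SD, n = 3). The non-Dbx1 samples all lay within the range of the Dbx1 samples.

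Ndufb9, the complex I gene with the highest mean, measured 568, 645 and 624 RPKM and then 655, 512 and 638. Its L2FC of 0.03 (SE 0.24) was well within the spread. Ndufc1, an accessory subunit, measured 53.7, 66.5 and 45.7 and then 42.8, 37.4 and 41.6, so the groups did not overlap, and the L2FC was 0.42 (SE 0.23, limma FDR 0.924). Ndufs3, a core subunit of the hydrophilic arm, also had groups without overlap at 30.9, 22.2 and 22.1 and then 19.0, 21.9 and 19.8, with the nearest samples 0.119 RPKM apart and an L2FC of 0.28 (SE 0.26, limma FDR 0.951).

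In the opposite direction, Ndufb2 measured 13.2, 13.4 and 11.8 and then 19.4, 17.8 and 12.46, with an L2FC of -0.33 (SE 0.30) and overlapping groups. Ndufab1, the mitochondrial acyl carrier protein, which serves lipoic acid synthesis as well as complex I, had the lowest mean of the complex at 4.35 RPKM. It measured 5.37, 3.83 and 2.50 and then 4.62, 4.81 and 4.998, with an L2FC of -0.29 (SE 0.47).

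Complex II, succinate dehydrogenase, is shared with the citrate cycle and has no mitochondrially encoded subunit. Its 4 genes summed to 819, 691 and 586 RPKM in Dbx1 neurons against 524, 669 and 684 in non-Dbx1 neurons, with overlapping groups and a median L2FC of 0.14. Sdhd, the small membrane anchor, was the highest at 442, 370 and 327 and then 249, 361 and 347 (L2FC 0.26, SE 0.25, overlapping groups). Sdhc, the other anchor, was the lowest at 46.9, 52.2 and 34.8 and then 35.6, 36.4 and 45.2 (L2FC 0.18, SE 0.25). Sdha, the flavoprotein, was the gene below 0, at -0.18 (SE 0.30).

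Complex III, the cytochrome bc1 complex, had the median nearest to 0, at 0.00, with 5 of 9 genes above 0. The sums were 2156, 1796 and 1449 and then 1682, 1737 and 1841, the highest and the lowest value both falling in the Dbx1 group. Cyc1 measured 783, 558 and 489 and then 496, 574 and 569 (L2FC 0.13, SE 0.27). Uqcrc2, a core subunit and the lowest of the complex, measured 87.7, 56.4 and 41.5 and then 47.3, 53.7 and 83.9 (L2FC -0.02, SE 0.34). Uqcrc1, its partner in the core, had the largest L2FC of the complex at 0.39 (SE 0.29).

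**Figure D3:**
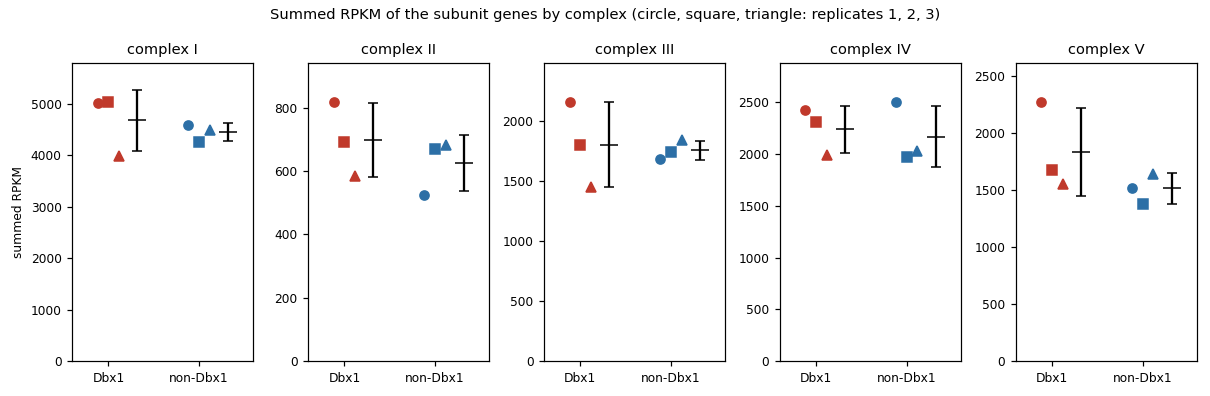
Points are the summed RPKM of the subunit genes of a complex in each sample, from 0 on a linear axis, with the group mean and SD at the right of each group. The groups overlap in all 5 complexes, and complex V has its highest sum, 2276, in Dbx1 replicate 1.

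Complex IV, cytochrome c oxidase, summed to 2430, 2306 and 1988 in Dbx1 neurons against 2505, 1971 and 2035 in non-Dbx1 neurons. Of its 16 tested genes 9 were above 0, with a median L2FC of 0.05. The main isoforms were abundant in every sample. Cox4i1 measured 198 to 274 RPKM over the 6 samples, Cox6a1 245 to 381, Cox6b1 236 to 285, Cox7a2 146 to 208, Cox7b 96.9 to 141 and Cox8a 580 to 777. Their L2FC lay between -0.10 for Cox7b and 0.15 for Cox4i1, and none passed the test. Ndufa4, of which the protein is bound to complex IV, measured 140 to 209 (L2FC -0.12, SE 0.24).

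The isoform of complex IV with the largest difference was Cox7a1 (chr7:30184144-30186078, plus strand), the heart and skeletal muscle form of subunit VIIa. It was listed at 0, 0 and 2.24 RPKM in Dbx1 neurons against at 6.57, 4.80 and 4.65 in non-Dbx1 neurons, from 0, 0 and 11 reads and then 30, 29 and 31 reads. The groups did not overlap, and 3 reads of this gene correspond to at most 0.657 RPKM. The L2FC was -2.09 (SE 0.65) with an unadjusted limma p of 0.0113 and an FDR of 0.859. As a share of the family with Cox7a2 and Cox7a2l, Cox7a1 made up 0%, 0% and 0.921% and then 2.42%, 1.94% and 1.80%, a difference of -1.75 percentage points (exact two-sided permutation test, p = 0.10, the smallest 3 samples against 3 can give, and adjusted p = 0.45 over 9 isoforms). The oligodendrocyte and erythroid markers given above were also highest in the non-Dbx1 sample with the most Cox7a1, and their part in the result was not tested. Without that sample the L2FC was -1.95 (limma FDR 0.888). The size of the L2FC depended on the treatment of values at 0: it ran from -4.29 to -1.80 over 15 alternatives and was -4.23 with a pseudocount of 0.1.

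Other tissue isoforms appeared in single samples or at low levels. Cox6a2, the muscle form of subunit VIa (chr7:128205435-128206387, minus strand), was listed at 13.2 RPKM in non-Dbx1 replicate 1, from 58 reads, and at 0 in the other five samples. That was the sample set apart by oligodendrocyte and erythroid markers, whose part was not tested, and Cox6a2 there made up 3.35% of its family. Cox7b2, a testis form, was listed at 10.5 RPKM in Dbx1 replicate 2, from 43 reads, and at 3.91 in non-Dbx1 replicate 3, from 20 reads, and at 0 in the other four.

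Cox8b, a muscle form of subunit VIII, reached 3.19 RPKM in Dbx1 replicate 3 and 2.15, 1.62 and 0.294 in non-Dbx1 neurons, from at most 8 reads, and Cox8c was listed at 0 in all 6. Cox4i2, the lung form, did not exceed 0.649 RPKM or 6 reads, and Ndufa4l2 was found in non-Dbx1 replicate 2 alone, at 1.10 RPKM from 3 reads. Such values lie close to the limit of 3 reads and show no order between the groups.

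Cox6b2, known from testis, was an exception in being present in all samples, at 6.10, 8.17 and 3.94 RPKM and then 9.83, 3.36 and 6.95, from 82 to 196 reads. It made up 1.26% to 3.35% of its family with no difference between the groups beyond their spread (L2FC -0.07, SE 0.49, 95% interval -1.20 to 1.05). Cox7a2l, which is known for joining complexes III and IV, made up 34.5% to 41.0% of its family (exact two-sided permutation test, p = 0.40, adjusted p = 1 over 9 isoforms).

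Complex V, ATP synthase, had 12 of 15 genes above 0 and a median L2FC of 0.11. Its sums were 2276, 1682 and 1554 in Dbx1 neurons against 1525, 1379 and 1646 in non-Dbx1 neurons, a mean of 1838 ± 385 against 1517 ± 134 (SD, n = 3), with overlapping groups. Without Dbx1 replicate 1 the log2 ratio of the means fell from 0.28 to 0.09. Atp5b, the catalytic beta subunit, was the highest at 604, 350 and 328 and then 284, 297 and 408 (L2FC 0.34, SE 0.31).

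Atp5g3 was the member with the clearest difference in favour of Dbx1 neurons. It measured 382, 355 and 335 RPKM in Dbx1 neurons against 229, 243 and 245 in non-Dbx1 neurons, from 4614 to 9467 reads. The gap between the groups was wider than the range within either, the means being 357 ± 23.9 and 239 ± 8.38 (SD, n = 3). The L2FC was 0.58 (SE 0.21, 95% interval 0.10 to 1.06) with an unadjusted limma p of 0.0236 and an FDR of 0.912. The L2FC of Atp5g3 lay between 0.53 and 0.63 over 15 alternatives. Its sign could not change with a sample left out, since the groups did not overlap. Atp5d, the delta subunit of the central stalk, also had groups without overlap, at 207, 187 and 173 and then 157, 138 and 172 (L2FC 0.28, SE 0.21, limma FDR 0.942).

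Atp5g1 ran the other way from Atp5g3. It measured 7.66, 7.16 and 7.39 RPKM in Dbx1 neurons against 9.98, 8.84 and 9.57 in non-Dbx1 neurons, again without overlap, with an L2FC of -0.31 (SE 0.33, limma FDR 0.953). Its within-group SD of 0.06 on the log2 scale was the smallest of the 82 genes, and limma's SE rests mainly on the spread of genes of like expression. As a share of subunit c, Atp5g1 made up 1.96%, 1.96% and 2.16% and then 4.17%, 3.498% and 3.76%, a difference of -1.78 percentage points (exact two-sided permutation test, p = 0.10, adjusted p = 0.45 over 9 isoforms). Atp5g2 was near the limit of detection at 0.147 to 2.70 RPKM, from 2 to 43 reads, and made up at most 0.742%. Every window of its principal transcript recurred in processed pseudogenes, so its low level cannot be read as low expression. The shares of subunit c are uncertain for the same reason, since Atp5g2 is part of their total. On the deposited scale Atp5g3 held most of the listed subunit c signal in every sample.

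Of the associated genes, Atp5sl measured 15.8, 10.9 and 11.8 and then 5.31, 8.29 and 10.4, without overlap, and had the largest L2FC of all at 0.65 (SE 0.36, limma FDR 0.924). Atp5s measured 20.9 to 51.1 over the 6 samples with an L2FC of 0.02 (SE 0.39).

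The order of levels between genes depended on the length by which reads were divided. The exon lengths behind the deposited values, recovered from the steps between RPKM values, were longer than the principal transcript for 64 of 84 genes. Leaving out Ndufa4l2, whose length rests on 3 reads, the ratio ran from 0.786 for Cyc1 to 16.2 for Ndufb2, with a median of 2.49. Divided instead by the length of the principal transcript, the highest means were Atp5b at 1474, Atp5g3 at 1300 and Cox4i1 at 1025, and Cox8a came to 651, Ndufb9 to 561 and Cyc1 to 454. On this scale Ndufb2 rose from 14.7 to 237. The length of a gene is the same in all samples, but it weights the genes in a sum or a share. On the principal-transcript scale Atp5g1 made up 0.945%, 0.944% and 1.04% of subunit c and then 2.03%, 1.70% and 1.83%, a difference of -0.87 percentage points in the same direction as on the deposited scale. Cox7a2l made up 20.1% to 24.8% of its family on the principal-transcript scale, beside 34.5% to 41.0% as deposited. The log2 ratio of the summed levels of complex V was 0.27 on this scale, beside 0.28 as deposited.

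**Figure D4:**
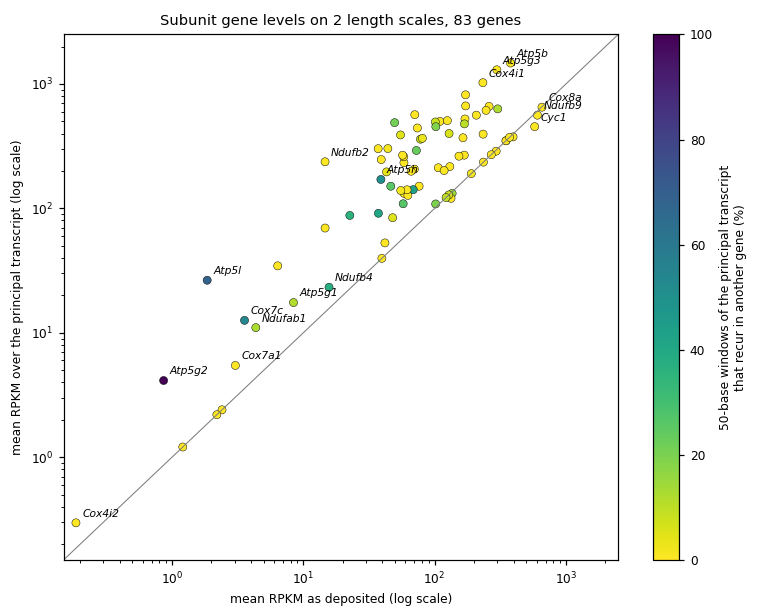
Each point is a subunit gene, with its mean RPKM as deposited against its mean RPKM over the principal transcript, both on log axes, and colour gives the share of 50-base windows found in other genes. Points above the line had exon lengths longer than the principal transcript, and Atp5g2, Atp5l and Cox7c, at the lower left, are among the genes with the most shared sequence.

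Sequence shared with other genes went with low levels. In 8 of 85 genes at least 30% of the 50-base windows of the principal transcript recurred in other genes, mostly processed pseudogenes, and 49 had none. On the principal-transcript scale the median was 57.2 RPKM for the 8 genes, 204 for the 28 genes with a smaller share and 349 for the 41 genes with none, leaving aside 8 tissue isoforms of complex IV. Atp5g2 was the extreme with 100% of windows shared and 4.14 RPKM, followed by Atp5l with 68.5% and 26.5 and Cox7c with 53.0% and 12.6. The principal transcript of Atp5g2 was nearly all coding sequence, at 438 of 441 bases. Cox7c, an invariant subunit of complex IV with no other isoform, was listed at 1.85, 6.42 and 4.30 RPKM and then 1.79, 4.30 and 2.78 as deposited. The last 60 coding bases of Cox7c before the stop codon (chr13:86045756-86045815, minus strand) are shown as an example of the shared part, since all 11 of the 50-base windows within them recurred in Gm10012 or Gm12338.
Cox7c: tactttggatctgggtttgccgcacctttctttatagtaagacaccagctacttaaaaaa

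For 4 of the 8 genes, the pseudogene row itself held many reads. The processed pseudogene Gm12251, which shares 35.5% of the windows of Ndufs3, had 947, 635 and 557 reads and then 429, 580 and 754, where Ndufs3 had 997, 677 and 623 and then 498, 762 and 758. The reads of the copy were 0.761 to 0.995 of those of the gene in each sample. Gm10250 had 0.972 to 1.33 times the reads of Atp5h, BC002163 had 0.827 to 0.982 times those of Ndufs5, and Gm2962 had 0.512 to 0.589 times those of Uqcrb. In deposited RPKM the copies stood above their genes, with means of 105, 212, 137 and 122 against 22.6, 39.0, 37.4 and 68.8. That order rests on exon length for Ndufs3, Ndufs5 and Uqcrb, since their copies had fewer reads than the gene in every sample. The levels of these 4 genes with a strong copy, and of Atp5g2, Atp5l, Cox7c and Ndufb4, are therefore uncertain. Whether reads of the gene were placed on the copy was not tested.

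Other genes of the pathway were described by the same measures. Of 46 tested assembly factors for the 5 complexes, none had an unadjusted p under 0.05, against 5.2% of all tested genes. The median L2FC of these factors was 0.12, and 29 were above 0, where 50.8% of all tested genes were. The groups did not overlap in 6 of the 46 (13.0%), against 10.6% of all tested genes. Coa4, a complex IV assembly factor, measured 2.69, 6.75 and 1.45 and then 0, 0.945 and 0.888 (L2FC 1.42, SE 0.62, unadjusted limma p 0.0506). Among 7 carriers, Slc25a4, the ADP/ATP translocase of excitable tissue, had the highest level at 485 to 941 RPKM (L2FC -0.09, SE 0.31). Cycs, the cytochrome c that links complexes III and IV, was the 1 carrier of 7 with an unadjusted p under 0.05, against 5.2% of all tested genes. It measured 11.97, 5.95 and 8.28 and then 2.86, 2.10 and 5.68 (L2FC 1.13, SE 0.49, unadjusted limma p 0.0491).

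Usmg5, a small ATP synthase subunit, and Atpif1, its inhibitor, had L2FC values of -0.02 and -0.03. None of the 8 listed regulators of respiratory genes had an unadjusted p under 0.05, against 5.2% of all tested genes. The mean levels of these regulators were 1.04 to 8.09 RPKM, beside medians of 73.4 for the subunit genes and 3.32 for all tested genes. Nrf1, which encodes the factor of the promoter motif above, measured 1.42, 4.08 and 0.504 and then 0.575, 3.46 and 0.816, and Ppargc1a, a coactivator of mitochondrial biogenesis, measured 14.2, 4.80 and 9.15 and then 5.32, 4.71 and 10.4. The groups overlapped for both genes.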

How the data were processed

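Reads were aligned by the authors to mm10 (TopHat2) and counted per gene without regard to strand (HTSeq). The authors deposited RPKM values per gene and sample, unscaled between samples, with Ensembl exon lengths. Versions are not given in the sources used here. Counts were not analysed here, so the authors' count test was replaced by limma 3.58.1 (R 4.3.3, mean-variance trend, two-sided, Benjamini-Hochberg FDR, threshold 0.1) on log2(RPKM + 1). Tables were made in Python 3.11.15.

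Reads on genes, recovered from the steps between RPKM values, numbered 6464675 to 9432958 per sample. They cover counting error only, and exon lengths were the annotated ones where these gave whole reads and otherwise the smallest that did. Cyc1 came out below its coding length and was doubled. Gene names were matched to GENCODE vM21 (85 of 86 subunit genes), and the principal transcript was chosen by APPRIS rank, coding length, then support level.

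The subunit genes and all lists were chosen with earlier results of these data known. Genes named were the highest and lowest of each complex, those with unadjusted p under 0.05, the 3 largest and 3 smallest L2FC with a mean of at least 1 RPKM, isoform families, genes at 0 in any sample and, after their values were seen, other genes whose groups did not overlap or that stood out. Tested on simulated data for this comparison over 17487 genes, limma recovered 4 of 100 genes changed by 1 and 33 of 100 changed by 2 on the log2 scale, none with the wrong sign. Alternatives were another pseudocount, other filters, 3 other scalings, limma without the trend, the replicate block, voom on recovered reads and leaving out each sample.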

Additional observations from a re-analysis of the deposited data

Results flagged for a closer look

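Rows with a -ps name were left out of the subunit genes, and 4 of these 7 rows were above the limit of 3 reads in all 6 samples, which is why they are listed here. Atp5k-ps2 had a mean of 64.0 RPKM (range 44.0 to 79.4) and Uqcrh-ps2 of 42.6 (35.7 to 56.1), and for both every Dbx1 sample lay above every non-Dbx1 sample with an L2FC of 0.51 and 0.25 (limma FDR 0.912 and 0.951). Ndufab1-ps had a mean of 31.7 RPKM (28.6 to 38.4) from 90 to 143 reads, beside 4.35 RPKM for Ndufab1 itself. That order rests on exon length, since Ndufab1 had more reads than its copy in every sample, 153 to 415. Uqcrh-ps1 had a mean of 29.5 RPKM (18.7 to 41.0) from 19 to 44 reads.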

How the results depend on the processing

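No subunit gene had an FDR under 0.1 in any of the 15 alternatives, with 1 to 3 of them at an unadjusted p under 0.05. Over all genes, calls with an FDR under 0.1 numbered 0 higher in Dbx1 and 1 higher in non-Dbx1. The latter was 0 with a pseudocount of 0.1, with RPKM above 0 in at least 1 sample and with voom on recovered reads, 3 without the mean-variance trend, and 0 to 1 with a sample left out, and the former was 0 to 1 with a sample left out. The replicate numbers did not pair the samples (correlations of -0.11, 0.02 and -0.05 for numbers 1, 2 and 3, from 6 different mice). With the replicate block, the count higher in non-Dbx1 was 0 and no subunit gene was called. The median L2FC of the 82 subunit genes ran from -0.01 to 0.19 with a sample left out and was 0.12 with RPKM rescaled to the same total. Of the repeats of the L2FC of single named genes, 349 kept their sign and side of the threshold and 22 changed sign, all of the latter at an FDR above 0.9. With RPKM rescaled to the same total, Uqcrc2 came to 0.033 and Cox4i2 to -0.0034, and with a pseudocount of 0.1 Cox4i2 came to -0.19. With a sample left out, the L2FC ran from -0.079 to 0.098 for Ndufb9, -0.060 to 0.28 for Cyc1, -0.30 to 0.23 for Uqcrc2, -0.027 to 0.20 for Cox8a, -0.30 to 0.51 for Atp5g2, -0.20 to 0.16 for Cox4i2, -0.0079 to 0.31 for Cox6a1, -0.44 to 0.22 for Cox6b2, -0.046 to 0.21 for Cox7a2 and -0.18 to 0.017 for Cox7b. The cause was not tested. The isoform shares of Cox7a1 and Atp5g1 kept their direction with each sample left out, which groups without overlap must do. After seeing the data, leaving out genes with at least 30% shared windows and using the principal transcript for the summed levels were added, and moved no complex beyond its spread. The principal transcript was also used for the isoform shares, where the difference for Atp5g1 came to -0.874 percentage points in place of -1.78, as its exon length fell less than that of Atp5g3.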

Other observations

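The citrate cycle feeds electrons to complexes I and II. Of its 13 listed enzymes 12 had an L2FC above 0, beside 50.8% of all tested genes. The median was 0.27, beside 0.01 over all tested genes. No enzyme had an unadjusted p under 0.05, against 5.2% of all tested genes, or groups without overlap, against 10.6%. Fumarase (Fh1) had the largest L2FC, at 60.5, 54.1 and 39.5 RPKM in Dbx1 neurons against 27.7, 27.7 and 53.0 in non-Dbx1 neurons (0.54, SE 0.32, unadjusted limma p 0.127). Citrate synthase (Cs), the entry enzyme, measured 276, 109 and 137 and then 143, 112 and 217, an L2FC of 0.08 (SE 0.39). The summed RPKM of the list was 1306, 844 and 824 and then 776, 679 and 1094, highest in Dbx1 replicate 1.

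Genes that maintain and express mitochondrial DNA had mean levels of 0.40 to 11.5 RPKM. The medians were 73.4 for the subunit genes and 3.32 for all tested genes. Of these genes, 1 of 10 tested had an unadjusted p under 0.05, against 5.2% of all tested genes. Tfam, which packages mitochondrial DNA and starts its transcription, measured 4.52, 4.98 and 3.26 RPKM in Dbx1 neurons against 13.2, 7.79 and 16.5 in non-Dbx1 neurons, with no overlap (L2FC -1.32, SE 0.42, unadjusted limma p 0.0122). Tfb2m, its partner in transcription, measured 1.06, 0.781 and 1.99 and then 0.422, 0.393 and 2.003, with overlapping groups. The transcripts of mitochondrial DNA could not be set beside these values, since they were listed at 0.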
